A study of Mus musculus with 8 samples.

Results

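The Akr1b and Akr1c aldo-keto reductases were examined in ovarian neoplasia and wildtype ovary on 8 one-colour microarrays. The 10 genes were Akr1b3, Akr1b7, Akr1b8, Akr1b10, Akr1c12, Akr1c13, Akr1c14, Akr1c18, Akr1c19 and Akr1cl. They were found by the RefSeq accession of each non-control probe, which gave 12 probes of 55681 on the array and 10 of 20145 genes with a symbol. All 12 probes were well above background on at least 3 arrays, which was the requirement for testing. The set was chosen on the log2 differences of this same comparison, which were known from earlier results, so their differences between the groups are given as a description and carry no p-value.

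Total RNA came from neoplasias of mice with the genotype Pgrcre/+mPgrLsL/+ (5 arrays), which the series' design text writes as Pgrcre/+PgrBLsL/+, and from ovaries of wildtype mice (3 arrays), all cycling and 33 weeks of age. In the neoplasia mice, 1 copy of Pgr, the progesterone receptor gene, carries cre, which acts on the LsL allele in cells that use the Pgr promoter. Wildtype mice carried neither allele, so effects of the cre allele and of the receptor allele cannot be told apart. The labels do not tie arrays to separate animals, so p-values measure only the spread between these samples, which may be technical in part.

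Aldo-keto reductases are soluble enzymes that use NADPH or NADH to reduce carbonyl groups of sugars, aldehydes, prostaglandins and steroids. The Akr1b branch holds aldose reductase and its relatives, which reduce glucose, retinaldehyde and reactive aldehydes, and some of which make prostaglandin F2 alpha. The Akr1c branch holds hydroxysteroid dehydrogenases. In the rodent ovary its best known member is the 20alpha-hydroxysteroid dehydrogenase Akr1c18, which turns progesterone into a weakly active product in the regressing corpus luteum.

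The Akr1c genes were lower in the neoplasia, and 3 of the 4 Akr1b genes were higher. Log2 differences, neoplasia minus wildtype, lay between -6.91 and -1.72 for the 5 numbered Akr1c genes, with a median of -3.65, against a median of 0.13 over all 25216 tested features. Akr1cl differed by -2.45 and Akr1b10 by -0.79, whereas Akr1b3, Akr1b8 and Akr1b7 differed by 1.84, 1.91 and 2.70. Of the 10 genes, 8 passed the threshold of the array-wide test (limma, Benjamini-Hochberg over all features), 2 of them higher and 6 lower. Over all features 30.3% passed, 16.8% higher and 13.5% lower. The neoplasia and wildtype arrays did not overlap for 9 of the 10 genes, as for 39.0% of all features.

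**Figure D1:**
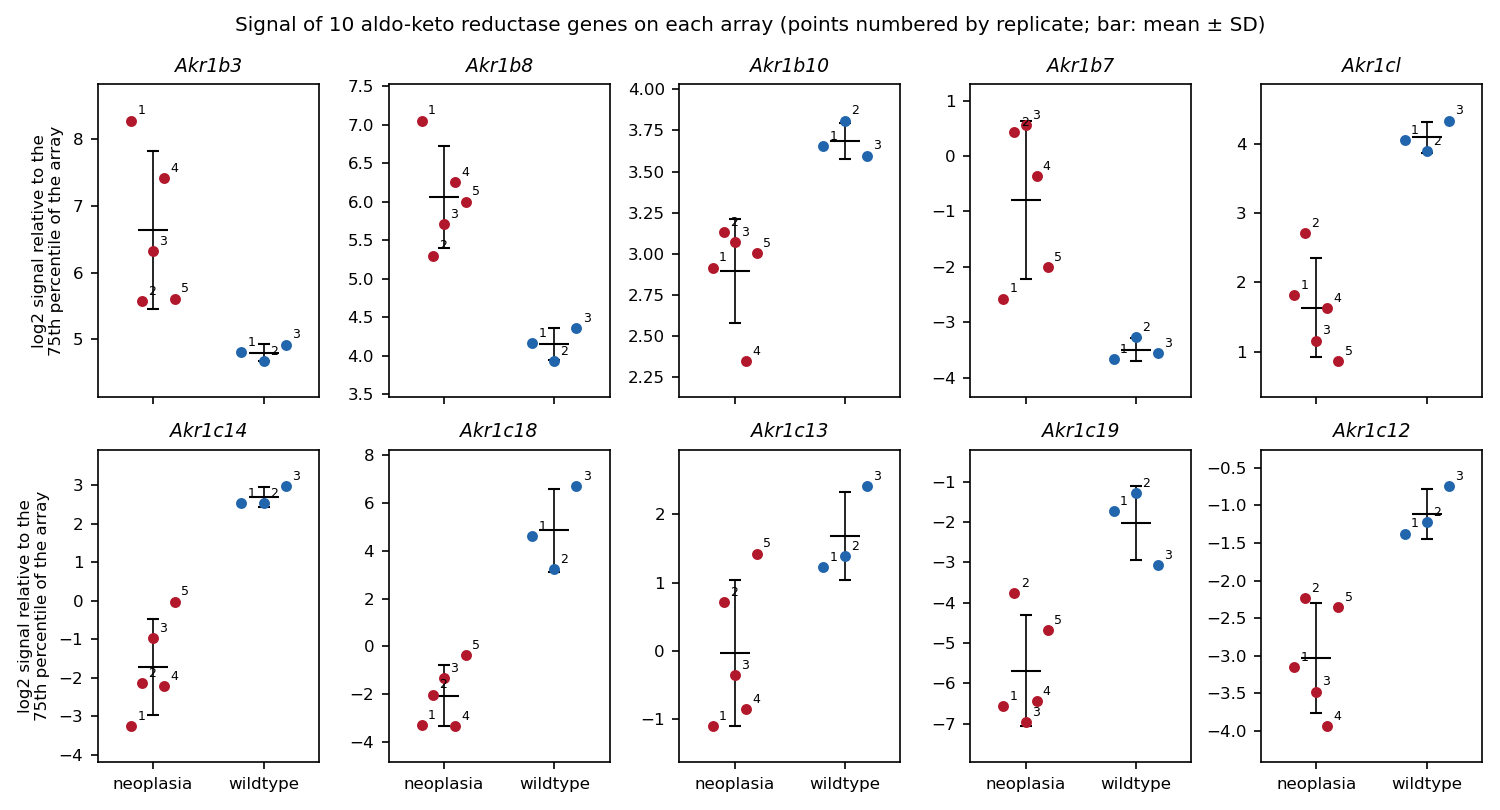
Log2 signal of the 10 genes relative to the 75th percentile of each array, 1 panel a gene, with a linear scale of its own. Points are arrays numbered by replicate, 5 neoplasia arrays left and 3 wildtype arrays right, and bars give the mean ± SD. The groups overlap only for Akr1c13, through neoplasia 5.

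The genes lie in 2 clusters and at 1 separate place, by their order in the RefSeq annotation. On chromosome 6 the order is Akr1b3, Akr1b8, Akr1b10 and Akr1b7, with no other protein-coding gene between them. Akr1b10, the single Akr1b gene that was lower, thus stands between Akr1b8 and Akr1b7, which were both higher. On chromosome 13 the order is Akr1c14, Akr1c18, Akr1c13, Akr1c19 and Akr1c12, followed by Akr1c6, Akr1c20, Akr1c21 and Akr1e1. The flanking genes with a tested probe, Slc35b4 and Bpgm on chromosome 6, differed by 0.44 ± 0.21 and 0.73 ± 0.53 (SE; limma adjusted p = 0.144 and 0.314). Akr1e1, at the end of the chromosome 13 cluster, differed by -0.27 ± 0.26 (SE; limma adjusted p = 0.434), and Klf6 behind it, a transcription factor gene, by 1.52 ± 0.24 (SE; limma adjusted p = 0.00350). Akr1cl lies apart on chromosome 1. Cryge, a lens crystallin gene directly after it, was also lower, by -3.84 ± 0.46 (SE; limma adjusted p = 0.00104), and the tested genes Fzd5 and Plekhm3 before it did not pass.

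**Figure D2:**
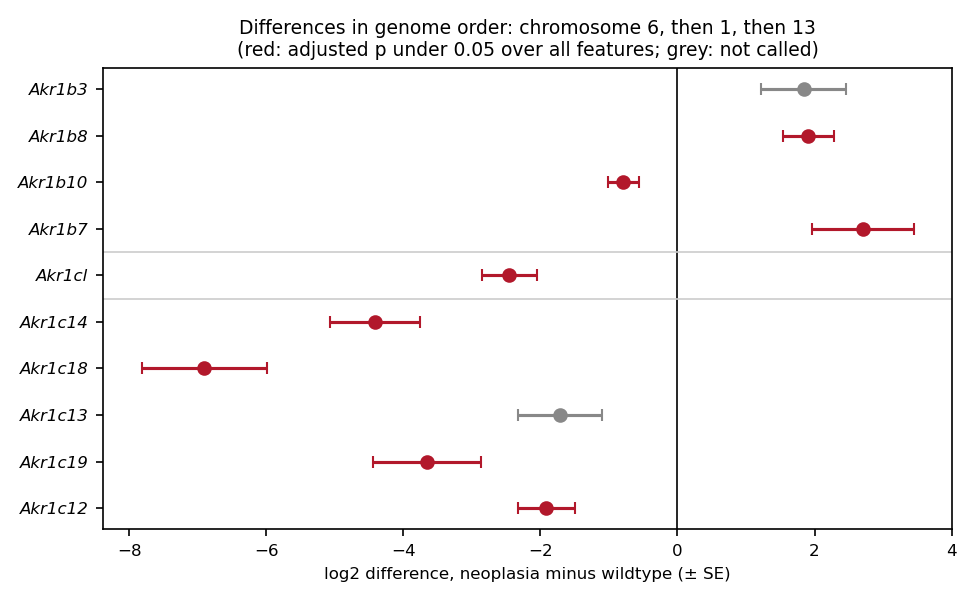
Log2 difference (neoplasia minus wildtype, ± SE) of each gene, with genes from top to bottom in genome order on chromosome 6, then 1, then 13. Points in red passed the array-wide threshold and points in grey did not. The 5 Akr1c genes lie left of 0, from -6.91 to -1.72, and the 4 Akr1b genes lie on both sides.

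RefSeq promoter windows (GRCm38.p6, 250 bases before to 50 bases after the gene start) were read for 9 of the 10 genes. The pair Akr1c12 and Akr1c13 is shown because these windows were the most alike, with 284 identical bases, 12 mismatches and 8 gapped positions in a global alignment (93.4% identity). The next most alike pair, Akr1c13 and Akr1c19, had 58.5% identity, and Akr1c14 and Akr1c18 had 52.8%. Capitals mark the bases that are not aligned to an identical base in the other window, 16 in each. The Akr1c12 window lies at chr13:4279350-4279649 on the minus strand and that of Akr1c13 at chr13:4190937-4191236 on the plus strand.
Akr1c12: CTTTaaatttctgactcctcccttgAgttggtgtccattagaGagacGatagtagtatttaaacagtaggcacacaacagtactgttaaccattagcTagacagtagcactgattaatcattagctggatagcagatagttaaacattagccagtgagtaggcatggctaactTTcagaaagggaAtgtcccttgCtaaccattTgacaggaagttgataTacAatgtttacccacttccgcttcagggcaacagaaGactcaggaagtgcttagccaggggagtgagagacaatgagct
Akr1c13: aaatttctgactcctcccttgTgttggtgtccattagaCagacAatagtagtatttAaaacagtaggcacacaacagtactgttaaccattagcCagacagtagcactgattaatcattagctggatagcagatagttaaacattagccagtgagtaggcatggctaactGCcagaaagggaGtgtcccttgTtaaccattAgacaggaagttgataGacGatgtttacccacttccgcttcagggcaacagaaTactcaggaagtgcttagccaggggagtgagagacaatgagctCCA

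The windows of Akr1b10 and Akr1b7 are shown because both hold a match to the binding motif of the nuclear receptors NR5A1 and NR5A2, AAGGTCA, while their signals moved in opposite directions. Capitals mark that match, which lies on the minus strand, and in Akr1b7 also a minus-strand match to AGAACA. Those letters are a part of a progesterone receptor element and not a whole one. The Akr1b10 window lies at chr6:34383997-34384296 and the Akr1b7 window at chr6:34412112-34412411, both on the plus strand.
Akr1b10: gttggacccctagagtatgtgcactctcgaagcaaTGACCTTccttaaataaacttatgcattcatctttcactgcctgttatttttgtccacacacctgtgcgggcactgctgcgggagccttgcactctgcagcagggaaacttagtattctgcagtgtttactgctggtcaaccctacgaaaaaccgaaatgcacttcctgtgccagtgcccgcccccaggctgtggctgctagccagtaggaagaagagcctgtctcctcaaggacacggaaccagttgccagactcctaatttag
Akr1b7: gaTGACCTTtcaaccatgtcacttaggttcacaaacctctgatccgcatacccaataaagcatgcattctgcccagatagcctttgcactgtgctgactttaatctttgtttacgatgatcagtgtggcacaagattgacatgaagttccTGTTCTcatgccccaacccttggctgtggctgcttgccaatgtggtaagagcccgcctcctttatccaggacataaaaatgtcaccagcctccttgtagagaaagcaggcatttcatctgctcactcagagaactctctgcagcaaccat

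Of 32851 RefSeq promoter windows of this length, 4.72% held AAGGTCA and 19.0% held AGAACA on either strand. The antioxidant response element TGACNNNGC, the core of sites bound by Nrf2, matched in the windows of Akr1cl and Akr1c19, and in 12.4% of all windows. AGAACA matched in 2 of the 9 windows, those of Akr1b7 and Akr1cl. The TATA box letters TATAAA matched in that of Akr1b8, on the minus strand with the first base at -159 from the gene start. They matched in 13.6% of all windows on either strand. The cAMP response element TGACGTCA matched in none of the 9 and in 1.79% of all. None of the 5 motifs matched in the windows of Akr1c12, Akr1c13, Akr1c14 and Akr1c18. These matches describe the letters of the windows, and binding was not measured. The motifs overlap in none of the windows shown.

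Akr1c18, the 20alpha-hydroxysteroid dehydrogenase, had the largest difference of the set. Its processed signal was 31.7, 106, 145, 33.9 and 282 on neoplasia 1 to 5, against 12431, 4882 and 48166 on wildtype 1 to 3. The highest neoplasia array thus lay far below the lowest wildtype array. Relative to the 75th percentile of each array, its log2 level averaged -2.06 ± 1.28 (SD, n = 5) in neoplasia and 4.85 ± 1.74 (SD, n = 3) in wildtype. The difference was -6.91 ± 0.91 (SE), or 120.0-fold lower, and it stood at rank 42 from the lowest of the 25216 features. Its size depended on single wildtype arrays, being -5.98 without wildtype 3 and -7.71 without wildtype 2.

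Akr1c18 also varied among the wildtype ovaries, by 11-fold between wildtype 2 and wildtype 3, and 98.5% of all features had a smaller SD over the wildtype arrays. Neither the day of the cycle nor the number of corpora lutea is given in the labels. Of the 10 luteal markers, 7 had the same order of wildtype arrays, with wildtype 3 highest and wildtype 2 lowest, and 3 (Oxt, Parm1 and Star) had another order. This order was not particular to luteal markers. The theca and interstitial markers had it too, except Col1a1. So did the granulosa markers Fshr, Inha, Inhba, Cyp19a1 and Esr2, while the other granulosa markers did not. The share of all features with this order was not counted. Ptgfr, the prostaglandin F receptor that mediates luteal regression, stood at a log2 level of 3.16, 1.71 and 4.05 on wildtype 1 to 3, and Lhcgr, the luteinizing hormone receptor, at 2.26, 1.29 and 2.73. Neither was well above background on any neoplasia array, and they were at least 221-fold and at least 120.1-fold lower there (limma adjusted p = 1.07e-05 and 4.59e-06). These bounds hold for the main values. With normexp the log2 differences of Ptgfr and Lhcgr were smaller, at -5.80 and -4.53.

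Akr1c14, the 3alpha-hydroxysteroid dehydrogenase that forms allopregnanolone and other 3alpha-reduced steroids, had signals of 32.1, 96.4, 185, 72.1 and 353 on neoplasia 1 to 5, against 2962, 2984 and 3661 on wildtype 1 to 3. The wildtype values were similar, and each was above every neoplasia value. Its log2 level averaged -1.73 ± 1.25 (SD, n = 5) in neoplasia and 2.69 ± 0.26 (SD, n = 3) in wildtype, a difference of -4.41 ± 0.66 (SE), or 21.3-fold lower. The difference lay between -4.84 and -4.03 when single arrays were left out, and it was -3.84 with normexp. Unlike Akr1c18, Akr1c14 was spread by 1.37-fold only among the wildtype arrays.

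Akr1c19, a dehydrogenase of hydroxysteroids and other alcohols, was near background in the neoplasia. Its signals were 3.25, 31.4, 2.93, 3.90 and 14.02 on neoplasia 1 to 5, against 153, 211 and 55.2 on wildtype 1 to 3. The probe was well above background on neoplasia 2 alone of the neoplasia arrays and on all 3 wildtype arrays. The log2 difference of -3.65 ± 0.79 (SE) therefore rests mostly on signals at background, and it was -0.88 with normexp background correction and an offset of 50. In wildtype the order of arrays was the reverse of that of Akr1c18, with wildtype 3 lowest. Its call was lost without wildtype 1 or wildtype 2.

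Akr1c12 and Akr1c13, which lie on either side of Akr1c19, are dehydrogenases known from the mouse stomach. Akr1c12 had signals of 34.8, 91.3, 32.6, 22.0 and 70.3 on neoplasia 1 to 5, against 197, 221 and 276 on wildtype 1 to 3, with no overlap. Its log2 level averaged -3.03 ± 0.73 (SD, n = 5) in neoplasia and -1.11 ± 0.33 (SD, n = 3) in wildtype, a difference of -1.92 ± 0.42 (SE). That difference was -0.95 with normexp, and its call was lost without wildtype 3. Akr1c13 had signals of 144, 702, 283, 186 and 964 on neoplasia 1 to 5, against 1196, 1346 and 2472 on wildtype 1 to 3.

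On the scaled values Akr1c13 was the single gene of the set whose groups overlapped, since neoplasia 5 stood at 1.43 on the log2 scale and wildtype 1 and 2 at 1.23 and 1.39. The difference of Akr1c13, -1.72 ± 0.61 (SE), did not pass the threshold in the main values, and it passed without neoplasia 5. Both genes were highest on wildtype 3 and, among the neoplasias, highest on neoplasia 2 and 5. Probe sequences were not used here, so whether either probe also binds the transcript of the other gene was not tested.

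Akr1cl had signals of 1086, 2810, 811, 1047 and 654 on neoplasia 1 to 5, against 8440, 7629 and 9317 on wildtype 1 to 3. Its log2 level averaged 1.64 ± 0.71 (SD, n = 5) in neoplasia and 4.09 ± 0.23 (SD, n = 3) in wildtype, a difference of -2.45 ± 0.40 (SE), or 5.47-fold lower. It was the single gene of the 10 that passed the threshold under each of the 19 alternatives. Among the neoplasias it was lowest on neoplasia 5, where the numbered Akr1c genes were highest or next to highest.

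Akr1b3, aldose reductase, which turns glucose into sorbitol and can also make prostaglandin F2 alpha, was measured by 2 probes. Probe A_52_P10041 had signals of 96247, 20377, 29160, 57801 and 17521 on neoplasia 1 to 5, against 14277, 13141 and 13966 on wildtype 1 to 3. The wildtype arrays were within 1.18-fold of each other, while the neoplasias were spread by 6.55-fold, with neoplasia 1 and 4 highest and neoplasia 2 and 5 lowest. The log2 difference was 1.84 ± 0.62 (SE), with no overlap, and it did not pass the threshold. The other probe, A_55_P2174953, had the same order over all 8 arrays and a difference of 1.74 ± 0.66 (SE). The gene passed without neoplasia 2 and without neoplasia 5. With quantile normalization the difference was 1.13.

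Akr1b8, a reductase of aldehydes and retinaldehyde first known as a protein induced by fibroblast growth factor, had the most uniform rise of the Akr1b genes. Signals were 41112, 16891, 18944, 25761 and 22959 on neoplasia 1 to 5, against 9174, 7857 and 9458 on wildtype 1 to 3. Each neoplasia array stood above each wildtype array. Its log2 level averaged 6.06 ± 0.66 (SD, n = 5) in neoplasia and 4.15 ± 0.21 (SD, n = 3) in wildtype, a difference of 1.91 ± 0.37 (SE), or 3.76-fold higher. The probe was printed 10 times on each array, and the coefficient of variation over its spots was 3.94% to 7.996% on the neoplasia arrays and 4.89% to 6.11% on the wildtype arrays. The spots of 1 array thus differed far less than the neoplasia arrays did. The spots of wildtype 3, at 8392 to 10230, differed about as much as the signals of the 3 wildtype arrays. The call was kept without any single array and was lost with slide row as a block and with scaling on spike-in controls, which gave a difference of 1.31.

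Akr1b7, known from the vas deferens and the adrenal cortex and able to make prostaglandin F2 alpha, was dim in the wildtype ovary. Signals were 51.9, 580, 534, 262 and 88.9 on neoplasia 1 to 5, against 40.3, 53.6 and 39.3 on wildtype 1 to 3. As raw signal neoplasia 1 lay within the wildtype range. On the scaled log2 values it stood at -2.57, above wildtype 2 at -3.26, and the groups did not overlap. The difference was 2.70 ± 0.74 (SE), or 6.51-fold higher, and 93.1% of all features had a smaller SD among the neoplasias. Its call was lost without any of the wildtype arrays or without neoplasia 4, and the difference was 1.86 with normexp.

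Akr1b10, a reductase of aldehydes and retinaldehyde, was the least changed of the set and had little spread. Probe A_51_P486618 had signals of 2334, 3764, 3055, 1720 and 2875 on neoplasia 1 to 5, against 6428, 7221 and 5589 on wildtype 1 to 3. The log2 level averaged 2.90 ± 0.32 (SD, n = 5) in neoplasia and 3.69 ± 0.11 (SD, n = 3) in wildtype, a difference of -0.79 ± 0.22 (SE), or 1.73-fold lower. Probe A_55_P2095196 gave -0.70 ± 0.23 (SE) and also no overlap. The call was lost without any of the wildtype arrays, with the replicate number as a block and with spike-in scaling. The authors' deposited values, left unscaled, gave -1.22, and spike-in scaling gave -1.39 ± 0.51 (SE).

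The order of the neoplasias differed between the genes, also within each branch. Akr1b3 and Akr1b8 were highest on neoplasia 1, next on neoplasia 4 and lowest on neoplasia 2. Akr1c14 and Akr1c18 were lowest on neoplasia 1 and 4 and highest on neoplasia 5, followed by neoplasia 3. Akr1b7 followed neither order, being highest on neoplasia 3 and 2 and lowest on neoplasia 1. Akr1c12, Akr1c19 and Akr1b10 were highest on neoplasia 2, and Akr1b10 was lowest on neoplasia 4 and next to lowest on neoplasia 1. With 5 neoplasias no correlation is given. Neoplasia 5, the array nearest to the wildtype level for Akr1c14 and Akr1c18, still stood 2.71 and 5.20 below the wildtype mean on the log2 scale. It was also the single neoplasia array in the same row of the slide as the wildtype arrays, so slide row and group can be told apart on that array alone. With slide row as a block, Akr1cl alone of the 10 genes passed the threshold.

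**Figure D3:**
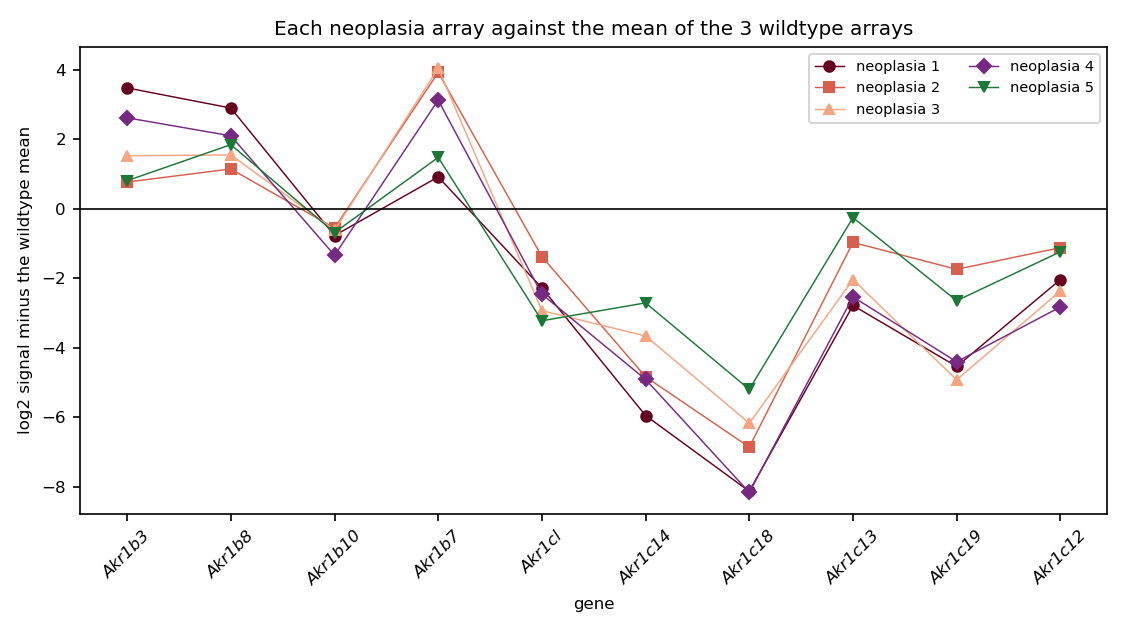
Log2 signal of each neoplasia array minus the mean of the 3 wildtype arrays (vertical axis) for the 10 genes (horizontal axis, in genome order). Lines join the values of 1 array. Neoplasia 1 is highest for Akr1b3 and Akr1b8 and lowest for Akr1c14, where neoplasia 5 is highest.

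Cell type markers moved with these genes, and their part in the differences was not tested. In bulk RNA, fewer cells of a type and less RNA per cell cannot be told apart. Of 10 luteal markers, 8 fell and 2 rose, while over all features 13.5% were lower and 16.8% higher. Their summed level, in units of the 75th percentile of each array, was 98.6 to 238 in neoplasia and 473 to 838 in wildtype. Such a sum is set mostly by the brightest markers of a list, so its range can rest on few of them. Of 10 granulosa markers, 7 fell and 3 did not pass, with sums of 71.5 to 123 in neoplasia and 174 to 239 in wildtype. Foxl2 and Fst, which did not pass, made up most of the neoplasia sums. All 10 oocyte markers fell, and 6 of them, Zp1, Zp2, Bmp15, Figla, Zar1 and Padi6, were not well above background on any neoplasia array. These 6 entered the test through the wildtype arrays alone, where they were high. With the filter on all 8 arrays 1 oocyte call was left. With normexp Figla differed by -0.14 and was not called. Of the other oocyte markers, Gdf9 was well above background on 5 of 5 neoplasia arrays, Zp3 and Nlrp5 on 3 each and Oosp1 on 1.

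Of 9 measured epithelial markers, 2 rose (Krt8 and Krt18), 2 fell (Epcam and Cdh1) and 5 did not pass, with sums of 179 to 768 in neoplasia and 12.5 to 70.9 in wildtype. In neoplasia the epithelial sum came mostly from Krt8, Krt18 and Krt19. It was highest on neoplasia 1 and next on neoplasia 4, as were Akr1b3 and Akr1b8. Among the neoplasias Epcam was highest on neoplasia 5, and Cdh1 on neoplasia 1 and next on neoplasia 5. Both falls were lost without wildtype 1 or wildtype 2, and that of Cdh1 also without neoplasia 2, 3 or 4. For Akr1b7, markers of its known sites were read beside it. Of 5 epididymis and vas deferens markers, Crisp1 rose, 3 fell and 1 did not pass. Their sums were 37.8 to 381 in neoplasia and 24.8 to 67.8 in wildtype. Crisp1 made up most of the neoplasia sums, and Cst8, which fell, most of the wildtype sums. Of 5 adrenal cortex markers, Cyp21a1 rose, Nr0b1 fell and 3 did not pass, and the rise was lost without any of the wildtype arrays or neoplasia 3 or 4. The adrenal sums were 19.2 to 99.3 in neoplasia and 14.1 to 26.0 in wildtype, and Mrap, which did not pass, made up most of each.

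For the stomach, where Akr1c12 and Akr1c13 are known, 4 of 10 stomach and intestine markers were measured. Of these, Tff1 rose, Lgals4 fell and 2 did not pass, and both calls were lost without any of the wildtype arrays, that of Tff1 also without neoplasia 2, 3 or 4. Their sums were 3.16 to 6.07 in neoplasia and 6.32 to 8.40 in wildtype. Of 7 theca and interstitial markers 5 fell and 0 rose (3 fell without any of the wildtype arrays or neoplasia 4). Their sums were 6.83 to 99.2 in neoplasia and 42.1 to 57.0 in wildtype. The highest of them, on neoplasia 5, came mostly from Col1a1, which did not pass. Of 9 hepatocyte markers 3 rose and 1 fell (0 fell without any of the wildtype arrays or neoplasia 2 or 4), with sums of 16.2 to 495 in neoplasia and 4.004 to 11.7 in wildtype. Blood cells moved as well. All 7 measured macrophage markers rose, with sums of 90.9 to 179 in neoplasia and 30.6 to 36.5 in wildtype. The macrophage rises numbered 4 in the authors' deposited values, 3 with slide row as a block and 2 with spike-in scaling. All 5 erythrocyte markers rose, with sums of 377 to 1717 in neoplasia and 9.06 to 27.1 in wildtype.

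Among 7 other aldo-keto reductases, 3 were measured and 1 fell. Akr7a5, which reduces succinic semialdehyde and other aldehydes, differed by -1.35 ± 0.21 (SE; limma adjusted p = 0.00327). Akr1a1, aldehyde reductase, differed by -0.30 ± 0.19 (SE; limma adjusted p = 0.251) and did not pass in the main values. With quantile normalization its difference was -1.04 ± 0.21 (SE), and it passed. Akr1c6 was well above background on 1 of 8 arrays, a neoplasia array, and Akr1c21 and Akr1d1 on 0 of 8, so these genes have no measured difference.

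Most genes listed for progesterone synthesis and reduction fell beside Akr1c18. The list also holds other steroid steps, among them Hsd17b1 and Cyp19a1. Of 15 measured genes, 10 fell, 1 rose and 4 did not pass, while over all features 13.5% were lower and 16.8% higher. The median log2 difference was -2.20 against 0.13 over all features. Star and Cyp11a1, of progesterone synthesis, differed by -2.17 ± 0.58 and -1.64 ± 0.49 (SE; limma adjusted p = 0.0266 and 0.0379). Both calls were lost without any of the wildtype arrays, and that of Cyp11a1 also without neoplasia 1, 3 or 5. Hsd3b1, the enzyme that completes progesterone synthesis, differed by -7.90 ± 1.14 (SE), Hsd3b6 by -9.08 ± 0.61 (SE) and Hsd17b1, which makes estradiol, by -8.54 ± 0.53 (SE), with limma adjusted p between 3.31e-05 and 0.00248. Hsd3b6 and Hsd17b1 were well above background on 2 and 1 of 5 neoplasia arrays, so their sizes rest mostly on signals at background, and with normexp they were -6.24 and -5.33. Cyp19a1, aromatase, was not well above background on any and was at least 26.5-fold lower (limma adjusted p = 6.88e-05). With normexp the log2 difference of Cyp19a1 was -2.46, smaller than that bound.

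Genes listed for prostaglandin F2 alpha synthesis, breakdown and receptor moved both ways around Akr1b3 and Akr1b7. The list also holds prostaglandin D and E synthases and transporters, among them Ptgds, Ptges and Slco2a1. Of 16 measured genes of the list, 5 rose, 2 fell and 9 did not pass, with a median of 0.64. The shares over all features were 16.8% higher and 13.5% lower. Ptgs2, the inducible prostaglandin synthase, was not well above background in wildtype and was at least 11.5-fold higher (limma adjusted p = 0.000842). With normexp the log2 difference of Ptgs2 was 1.91, smaller than that bound. Slco2a1, a prostaglandin transporter, rose by 3.76 ± 0.74 (SE; limma adjusted p = 0.00897), and Ptgds, a prostaglandin D synthase, by 3.62 ± 0.86 (SE; limma adjusted p = 0.0176), a call lost without wildtype 1 or 2. The receptor gene Ptgfr was the largest fall of the list. The rises numbered 2 without wildtype 1, 3 without wildtype 3 and 3 with spike-in scaling.

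Genes of the Nrf2 response, which several aldo-keto reductases share, rose in part. Of 15 measured genes 5 rose, 0 fell and 10 did not pass, with a median of 0.83, while over all features 16.8% were higher and 13.5% lower. Osgin1 rose by 3.79 ± 0.44 (SE), Srxn1, which repairs peroxiredoxins, by 3.11 ± 0.47 (SE), and Gclm and Gclc, the subunits of the enzyme that starts glutathione synthesis, by 2.21 ± 0.24 and 1.94 ± 0.38 (SE), with limma adjusted p between 0.000623 and 0.00837. The value of Nqo1, a textbook target, was -0.31 ± 0.44 (SE; limma adjusted p = 0.603). The rises numbered 2 with spike-in scaling.

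The polyol pathway beside aldose reductase showed few changes. Of 9 measured genes of that pathway and the osmotic response, 1 rose, 0 fell and 8 did not pass, with a median of 0.11. The shares over all features were 16.8% higher and 13.5% lower. Slc6a12, a betaine transporter, rose by 5.78 ± 0.59 (SE; limma adjusted p = 0.000472) with 1 of 3 wildtype arrays well above background, and its difference was 3.62 with normexp. The value of Sord, the sorbitol dehydrogenase that follows aldose reductase, was 0.44 ± 0.59 (SE; limma adjusted p = 0.591). The rises numbered 2 without neoplasia 3 or 5, and 1 gene fell without neoplasia 1 or 2.

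Of 12 measured genes of retinaldehyde and aldehyde metabolism, 1 rose, 2 fell and 9 did not pass, with a median of -0.06. The shares over all features were 16.8% higher and 13.5% lower. The falls numbered 4 with normexp, quantile normalization or spike-in scaling and 5 in the authors' deposited values, and the rises numbered 0 with quantile normalization, with spike-in scaling and in the deposited values. Adh1, an alcohol dehydrogenase that acts on retinol, fell by 5.68 ± 0.71 on the log2 scale (SE; limma adjusted p = 0.00133), and Adh7 was at least 2.73-fold lower (limma adjusted p = 6.50e-05). With normexp the log2 difference of Adh7 was -0.52, smaller than that bound. Aldh1a2, which makes retinoic acid, rose by 1.93 ± 0.59 (SE; limma adjusted p = 0.0404), a call lost without any of the wildtype arrays or neoplasia 1, 3 or 4.

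**Figure D4:**
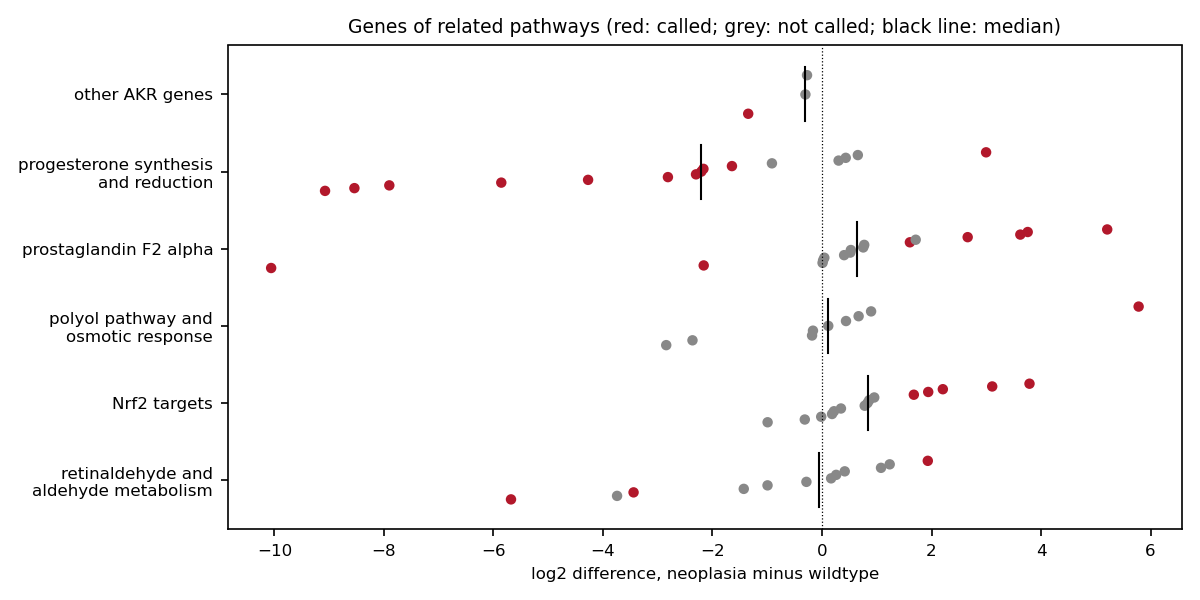
Log2 difference (neoplasia minus wildtype) of each measured gene in 6 lists of related pathways. Red points passed the array-wide threshold, grey points did not, and a black line marks each median. Genes of the progesterone synthesis and reduction list lie mostly left of 0 with a median of -2.20. The far values of genes below background in 1 group, among them Ptgfr, Ptgs2 and Cyp19a1, depend on signals at background.

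Likeness of pattern was measured as the Euclidean distance between log2 profiles over the 8 arrays, each centred on its own mean, among genes with a RefSeq symbol. Nearest to Akr1b3 were Aldh1a2, at a distance of 0.78, and 1110008P14Rik, at 0.83. Akr1b10 was closest to Cnst, at 0.21, and Mettl4, and Akr1b8 to Ppfibp1 and Vldlr, at 0.46 and 0.55. Akr1b7 was nearest to Klhl29 and Plcxd2, both at 1.18.

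Among the Akr1c genes, Akr1c12 was nearest to Cep70 and Tsc22d1, Akr1c13 to A630089N07Rik and Vmn2r48, Akr1c14 to Folr1 and Kcnt2, and Akr1c19 to Cd209a and Pipox, at distances of 0.45 to 1.26. The nearest profiles to Akr1c18, Bcan and Bpifb5, were at 2.26 and 2.32. Profiles were not scaled, so distances tend to be larger for genes with larger differences and are not compared between genes. Akr1cl was nearest to Trim14 and Atp6v0e2. These distances are set mainly by the difference between the groups and describe the 8 arrays only.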

How the data were processed

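The authors deposited scanner files of 8 one-colour (Cy3) arrays with spot intensity on a linear scale, background-subtracted and detrended by Agilent Feature Extraction 11.0.1.1 with an mm9 grid (per the file headers). The authors also deposited 1 table of log2 values for the series. All 37932 of its rows matched, within 0.001, the log2 mean intensity of the spots that share its accession, so it is neither centred nor scaled between arrays and no array was turned. Its medians ran from 4.80 to 6.07. Partek is named in the submitters' processing notes, with no role.

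Here each array's log2 processed intensity was set relative to its 75th percentile (309 to 429 in neoplasia, 462 to 515 in wildtype). Control and outlier-flagged spots were dropped, spots of a probe were averaged, and probes well above background on at least 3 of 8 arrays were tested. No spot was saturated. Accessions were matched to RefSeq genes of GRCm38.p6, which named 26582 of 55681 probes (47.7%). The probe with the highest mean stood for a gene. The 2 groups were fitted without covariates in limma 3.58.1 (R 4.3.3; lmFit, then eBayes; 6 residual degrees of freedom), and two-sided p-values were adjusted by Benjamini-Hochberg at 0.05, and the code was tested on simulated data. A gene below background on every array of a group is given as "at least" a fold, against the mean over that group's arrays of the higher of its own value and the array's lowest signal well above background. Such bounds hold for the main values alone. The number of arrays limits the precision.

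Members, gene lists and tests were chosen with earlier results of these data known. Named genes are all members, up to 4 called genes of each list by size of change where the list is described by genes, and the 2 nearest profiles of each member. Flanking genes, other aldo-keto reductases that were not called, Nqo1, Sord, Star and Cyp11a1 were added after their values were seen. So were the bright markers Foxl2, Fst, Krt19, Mrap and Col1a1. Promoter windows were aligned with Biopython 1.88. A comparison of proteins was planned and not made, and probe sequences were not used here. Alternatives were normexp with an offset of 50 (on the median foreground and background intensity), quantile normalization, no filter, a filter on all 8 arrays, the authors' values, the mean over probes, eBayes with trend and robust, blocks of replicate number or of slide row, row 2 of the slide alone, scaling on 6 of 10 E1A spike-in probes, and leaving out each array.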

Additional observations from a re-analysis of the deposited data

Results flagged for a closer look

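Akr1b10 on neoplasia 4 stood apart from the other neoplasia arrays. Its log2 level there was 2.35, against 2.92 to 3.13 on the other neoplasias, and this gap took up 0.722 of the group's range, above the limit of Dixon's test for 5 samples. The second probe of the gene was also lowest on neoplasia 4. Of 12 probes looked at, this was the single one so marked, and chance marks about 1 group in 20.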

How the results depend on the processing

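All 10 genes kept their direction under every alternative that gave a value, 19 for each gene and 18 for Akr1c19, which the filter on all 8 arrays removed. The number of genes called higher, 2 in the main values, was 1 in the authors' deposited values and with spike-in scaling, 0 with slide row as a block, and 1 to 3 when single arrays were left out. The number called lower, 6 in the main values, was 1 with slide row as a block, 2 in slide row 2 alone, and 4 to 7 without single arrays. In both row fits a difference is neoplasia 5 minus the 3 wildtype arrays, since row 1 holds no wildtype. Over the whole array 7652 features were called, 4686 with the replicate block, 1541 with slide row as a block, 4939 with spike-in scaling, and 2827 to 9981 without single arrays. Pathway genes called higher numbered 13, against 5 with slide row as a block, 7 with spike-in scaling and 8 to 18 without single arrays, and those called lower numbered 15, against 9 with slide row as a block and 13 to 17 without single arrays. Of the calls over the array, 55.4% were higher, against 66.5% with normexp, 67.6% with the filter on all 8 arrays, 42.9% with the replicate block, 20.2% for the deposited table and 15.2% under spike-in scaling (median log2 differences of -0.35 and -0.47). Col1a1, a theca and interstitial marker that did not pass, was 2.07 higher in slide row 2 alone, and the cause was not tested. Replicate numbers did not pair the samples (correlations of deviations from the group means between -0.0538 and -0.00113 over the 3 numbers), and with the replicate block Akr1b10 lost its call. Signal near background limits Akr1c19 and Akr1c12 in neoplasia and Akr1b7 in wildtype. Akr1c18 and Akr1c14 were also dim on some neoplasia arrays, and with normexp their differences were -5.97 and -3.84.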
